A study of Rattus norvegicus with 43 samples.

Results

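A panel of 44 cell cycle and DNA replication genes was described in distal colon tissue of Sprague Dawley rats aged 11 weeks, across 6 diets and across animals fed the same diet. The members are the genes of a fixed symbol list, with 1 probe set per symbol, the probe set of highest mean over all arrays. Of the 44 members, 40 had a probe set listed with their symbol and no other, and Mcm3, Mcm4, Cenpe and Mki67 were not analysed here for that reason. Gins1, a subunit of the replicative helicase, had a mean of 4.22 on the log2 scale and its median lay under the low-signal floor of 4.79. The remaining 39 members were among the 10828 genes tested, from 14506 symbols on the array.

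Each of the 43 arrays came from a different rat, with 100 ng of total RNA as input. The labels give 5 control animals (CON), 7 LAMS, 8 HAMS, which the labels abbreviate to HAM, 9 HAMSB, 6 LAW and 8 HAW. The codes are read here, from what is known of the study and not from the labels, as follows. CON is a control diet, and the others are Western-type diets that differ in their starch. LAMS holds maize starch low in amylose, HAMS maize starch high in amylose, HAMSB the butyrylated form of the latter, LAW a wheat low in amylose and HAW a wheat high in it. No genotype or agent besides diet is labelled. All values are log2 expression, so a difference of 1 is a doubling of signal.

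Cells copy their DNA once per division. During G1 the Mcm helicase is loaded on origins with the help of Cdc6 and Cdt1, geminin then blocks reloading, polymerase alpha-primase starts new strands, and ribonucleotide reductase and thymidylate synthase supply the precursors. Cyclin B with Cdk1 then drives mitosis, the spindle checkpoint holds chromosomes until they are attached, and the anaphase-promoting complex ends the division. In the colon such divisions take place in the lower crypt, and B cells of germinal centres in the lymphoid follicles of the wall divide as well. In bulk tissue, fewer dividing cells and less RNA per dividing cell cannot be told apart.

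Promoter sequence is shown for 9 members because the replication and mitosis members carry different short sequence words near their start sites. RefSeq promoter windows of build GRCr8 matched 34 of the 44 members, 31 of them on the array. Each line gives the 90 bases directly before the annotated start, 5′ to 3′ on the gene's strand, and capitals mark a match on either strand to the E2F word TTTNNCGC, to the cell cycle homology region (CHR) word TTTGAA or TTCGAA, or to CCAAT.
Mcm2 (chr4:122918095-122918184, minus strand): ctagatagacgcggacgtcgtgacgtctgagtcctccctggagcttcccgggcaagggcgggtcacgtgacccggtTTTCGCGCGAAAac
Mcm5 (chr19:13488723-13488812, plus strand): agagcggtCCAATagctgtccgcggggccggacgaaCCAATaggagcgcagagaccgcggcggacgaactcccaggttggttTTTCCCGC
Mcm7 (chr12:22163179-22163268, minus strand): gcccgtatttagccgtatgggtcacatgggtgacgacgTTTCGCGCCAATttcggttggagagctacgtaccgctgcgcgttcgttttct
Tyms (chr9:120776084-120776173, minus strand): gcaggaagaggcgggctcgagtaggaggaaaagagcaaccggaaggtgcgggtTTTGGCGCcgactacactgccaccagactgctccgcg
Pola1 (chrX:62342356-62342445, minus strand): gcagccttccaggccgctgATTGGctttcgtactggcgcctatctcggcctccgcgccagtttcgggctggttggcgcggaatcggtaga
Cdk1 (chr20:19265203-19265292, plus strand): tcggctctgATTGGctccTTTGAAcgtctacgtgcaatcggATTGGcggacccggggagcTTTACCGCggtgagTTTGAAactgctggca
Cdc20 (chr5:137255800-137255889, minus strand): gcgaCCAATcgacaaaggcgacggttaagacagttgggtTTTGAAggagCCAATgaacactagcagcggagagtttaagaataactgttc
Plk1 (chr1:186147568-186147657, plus strand): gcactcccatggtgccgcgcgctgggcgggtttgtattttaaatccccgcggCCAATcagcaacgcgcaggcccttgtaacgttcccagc
Top2a (chr10:84473094-84473183, minus strand): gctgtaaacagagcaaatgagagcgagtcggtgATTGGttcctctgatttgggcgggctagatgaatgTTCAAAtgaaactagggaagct

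The matches were counted over the whole 300-base window of each promoter, from 250 bases before the start to 50 after it. The E2F word stood in 10 of 16 replication promoters (licensing, synthesis and nucleotide supply; 62.5%) and in 2 of 14 mitosis promoters (kinases, checkpoint, anaphase-promoting complex and spindle; 14.3%), against 4.9% of all 33469 promoters. The CHR word stood in 3 of 16 replication promoters (18.8%) and in 9 of 14 mitosis promoters (64.3%), against 19.7% of all. CCAAT was found in 75% and 78.6% of these groups, against 37.5% of all. The words can overlap, as the E2F word and CCAAT do in Mcm7 and as the E2F word does with its own reverse strand in Mcm2. A match describes letters only, and no binding was measured on these arrays.

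Before the results by diet, 3 properties of the arrays touch all of them. The level of a B cell and germinal centre list, the mean of its 11 tested genes of 18, ran from 5.55 to 9.25 over the 43 arrays and left a gap between 6.11 and 6.61. Arrays above the gap numbered 1 of CON, 3 of LAMS, 6 of HAMS, 3 of HAMSB, 2 of LAW and 3 of HAW. The array files are named in 3 styles, which the labels do not explain, and all 8 HAMS arrays carry the style with the diet code first, against 3 of 7 LAMS, 5 of 9 HAMSB, 3 of 8 HAW, 1 of 6 LAW and no CON array. With diet in the model Pola1, Prim1, Pcna, Birc5 and Mcm7 followed the style (adjusted p under 0.05), 5 of 39 members or 12.8%, against 42.7% of all genes tested. HAMS replicate 1 stood apart: 33 of 39 members were highest there among the HAMS arrays and 18 were highest there among all arrays. Epithelial markers had list means of 9.96 to 11.14, so epithelium was present on every array.

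**Figure D1:**
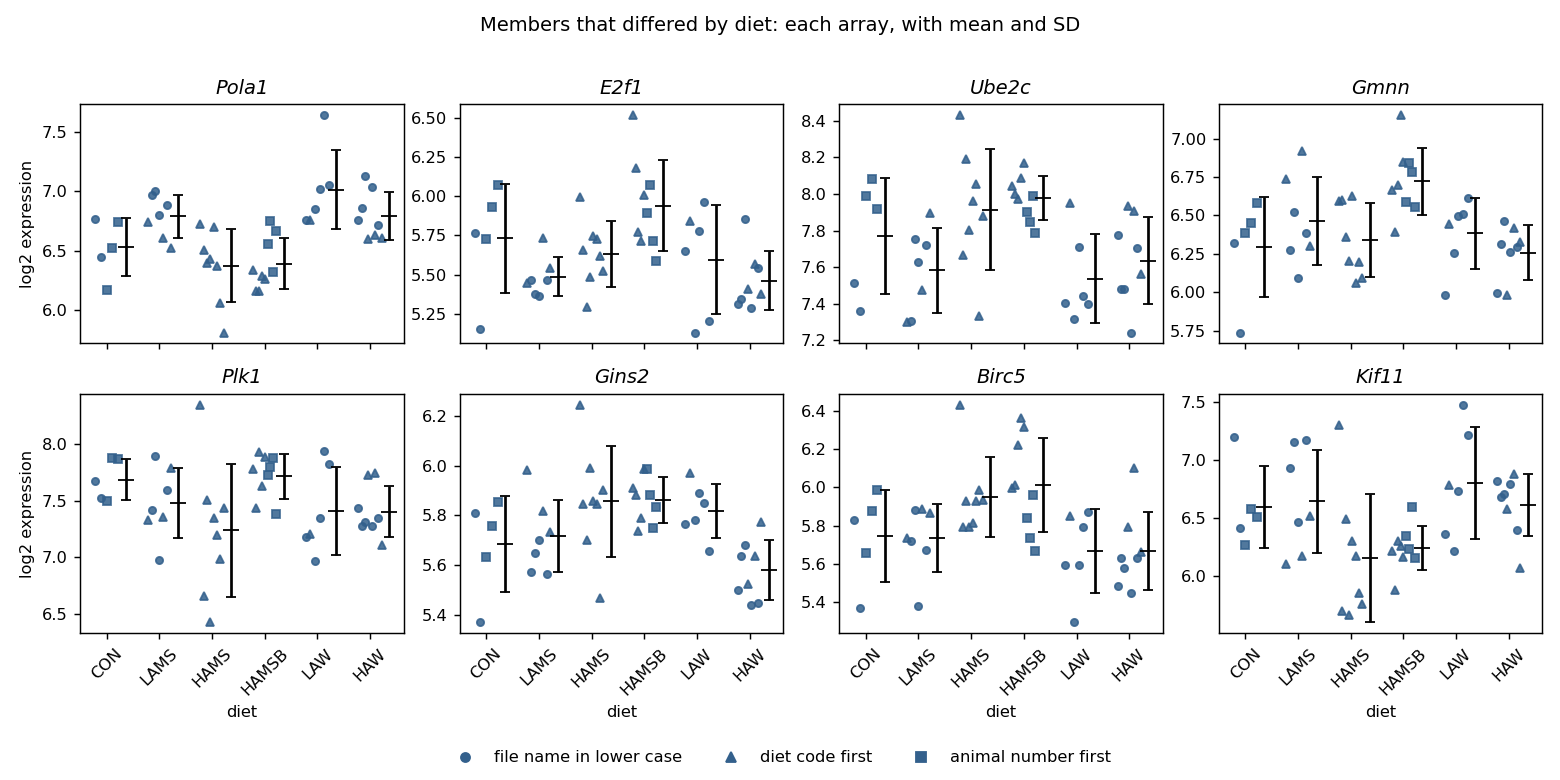
Log2 expression of 8 members on each array by diet code; marker shapes give the file name style, and the black bar gives the mean and SD of the diet. Pola1 sits lower in HAMS and HAMSB than in LAMS, E2f1 and Gmnn are highest in HAMSB, and for Plk1 and Kif11 HAMS replicate 1 (8.34 and 7.31) lies far above the other HAMS arrays.

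Diet separated few members. In the moderated F test over the 6 diets (limma, Benjamini-Hochberg over all genes tested, threshold 0.05) 7 of the 39 tested members passed, 17.9%, where 31% of all genes tested did. These were the licensing and helicase members Gmnn and Gins2, the polymerase subunit Pola1, the transcription factor E2f1, and the mitosis members Birc5, Ube2c and Kif11. No cyclin, no nucleotide supply member and not Cdk1 passed. Plk1 passed in a pairwise comparison only.

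Pola1, the catalytic subunit of polymerase alpha, had the smallest adjusted p of the members in the F test, 0.002. In CON it measured 6.77, 6.45, 6.17, 6.52 and 6.74. The lowest, median and highest values were 6.52, 6.80 and 7.00 in LAMS, 5.81, 6.42 and 6.72 in HAMS, and 6.16, 6.32 and 6.75 in HAMSB. The same values were 6.76, 6.93 and 7.64 in LAW and 6.60, 6.74 and 7.13 in HAW. The HAMS and HAMSB medians therefore lay under every LAMS array, although the ranges overlapped, and every wheat array lay above those medians. The difference was -0.41 ± 0.13 (SE) for HAMS minus LAMS (8 and 7 animals, adjusted p = 0.0292) and -0.40 ± 0.12 for HAMSB minus LAMS (9 and 7 animals, adjusted p = 0.0442). The call for HAMS was lost without any of LAMS replicates 2, 3 and 6 or HAMS replicates 6, 7 and 8 (adjusted p up to 0.0757). That for HAMSB was lost without any of LAMS replicates 2, 3, 4 and 6 or HAMSB replicates 1 to 5 (up to 0.113). With the B cell level as a covariate the differences were -0.41 for HAMS (adjusted p = 0.0511) and -0.40 for HAMSB (adjusted p = 0.028). Pola1 also followed the file name style (adjusted p = 0.0118). Within the style that puts the diet code first the differences were -0.25 (8 HAMS and 3 LAMS arrays) and -0.38 (5 HAMSB and 3 LAMS arrays), and with the style as a block the fitted values were -0.23 (adjusted p = 0.2) and -0.34 (adjusted p = 0.123).

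Among the other members of DNA synthesis, Prim1, the primase that lays down the primer for Pola1, and Pcna, the sliding clamp, did not pass in any diet comparison. Pcna differed by 0.41 ± 0.17 between HAMSB and HAMS (adjusted p = 0.0778). Both followed the file name style, with adjusted p = 0.00883 for Prim1 and 0.0309 for Pcna.

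Gmnn encodes geminin, which binds Cdt1 and stops origins from being licensed again. Its CON values were 6.32, 5.74, 6.38, 6.45 and 6.58. Over the other diets the lowest, median and highest values were 6.09, 6.39 and 6.92 in LAMS, 6.06, 6.28 and 6.63 in HAMS, 6.39, 6.70 and 7.15 in HAMSB, 5.98, 6.47 and 6.61 in LAW, and 5.98, 6.30 and 6.46 in HAW. The HAMSB median stood above every HAMS and every wheat array, while the HAMSB and HAMS ranges overlapped. Gmnn was higher in HAMSB than in HAMS by 0.38 ± 0.12 (adjusted p = 0.0227), and by 0.41 within the style with the diet code first (5 and 8 arrays). The call was lost without any of HAMS replicates 4, 6 and 8 or HAMSB replicate 4 (adjusted p up to 0.0538). With the style as a block the difference was 0.36 (adjusted p = 0.03). With the B cell level as a covariate it was 0.30 (adjusted p = 0.194).

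Gins2, a subunit of the GINS complex that activates the Mcm helicase, passed the F test (adjusted p = 0.031) without passing in any of the pairwise comparisons. Its medians were 5.76 in CON, 5.70 in LAMS, 5.85 in HAMS, 5.88 in HAMSB, 5.81 in LAW and 5.58 in HAW. HAW, at 5.44 to 5.77, had the lowest median. The HAW minus LAW difference was -0.24 ± 0.09 with an unadjusted p of 0.00963 and an adjusted p of 1. None of the other licensing members, Cdc6 and Cdt1, the loaders, and Mcm2, Mcm5, Mcm6, Mcm7 and Mcm10, passed in a diet comparison. In HAMS minus LAMS 4 of the 9 licensing members were positive and 5 negative, with a median of -0.01.

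E2f1, a transcription factor that activates S phase genes, measured 5.77, 5.16, 5.73, 5.93 and 6.07 in CON. Elsewhere the lowest, median and highest values were 5.37, 5.47 and 5.73 in LAMS, 5.30, 5.64 and 6.00 in HAMS, 5.59, 5.89 and 6.52 in HAMSB, 5.13, 5.71 and 5.96 in LAW, and 5.29, 5.39 and 5.86 in HAW. The HAMSB median lay above every LAMS array. HAMSB exceeded LAMS by 0.45 ± 0.13 (adjusted p = 0.0281), and by 0.46 within the style with the diet code first (5 and 3 arrays). The call was lost without any of LAMS replicates 2, 3, 4 and 6 or HAMSB replicates 1, 2 and 5 (adjusted p up to 0.0691), and with the style as a block the difference was 0.37 (adjusted p = 0.146). With the B cell level as a covariate the difference was 0.44 (adjusted p = 0.0167). Mcm2, Mcm5, Mcm7 and Tyms, whose E2F words are printed above, did not pass between HAMSB and LAMS. Foxm1, which activates mitotic genes, did not pass in any diet comparison.

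Ube2c, the ubiquitin-conjugating enzyme that works with the anaphase-promoting complex, measured 7.51, 7.36, 7.99, 8.08 and 7.92 in CON. Lowest, median and highest values were 7.30, 7.63 and 7.90 in LAMS, 7.33, 7.92 and 8.43 in HAMS, 7.78, 7.99 and 8.17 in HAMSB, 7.32, 7.42 and 7.95 in LAW, and 7.24, 7.63 and 7.93 in HAW. Both high-amylose maize diets had medians above every LAMS array. The difference was 0.39 ± 0.12 for HAMSB minus LAMS (adjusted p = 0.0456) and 0.33 ± 0.13 for HAMS minus LAMS (adjusted p = 0.069). The HAMSB call was lost without any of LAMS replicates 1 to 6 or HAMSB replicates 1 to 5 (adjusted p up to 0.128). Within the style with the diet code first the HAMSB difference was 0.50 (5 and 3 arrays), and with the style as a block it was 0.25 (adjusted p = 0.334). With the B cell level as a covariate the difference from LAMS was 0.37 for HAMSB (adjusted p = 0.0256) and 0.44 for HAMS (adjusted p = 0.0278). Cdc20, the activator of the same complex and the other member of its group, did not pass in any diet comparison.

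Plk1, a kinase of mitotic entry and spindle assembly, measured 7.68, 7.52, 7.49, 7.87 and 7.87 in CON. The lowest, median and highest values were 6.97, 7.42 and 7.90 in LAMS, 6.43, 7.27 and 8.34 in HAMS, 7.38, 7.78 and 7.93 in HAMSB, 6.97, 7.27 and 7.93 in LAW, and 7.11, 7.33 and 7.75 in HAW. HAMS spread over all the other diets, with HAMS replicate 1 above every other array and the lowest HAMS array below every other diet. HAMSB exceeded HAMS by 0.48 ± 0.16 (adjusted p = 0.0397). The call was lost in 10 of 17 runs that left out 1 array, those without HAMS replicates 2, 4, 6 or 7 or HAMSB replicates 1, 3 or 5 to 8, with adjusted p up to 0.121. Plk1 fell with the B cell level, and with that level as a covariate the difference was 0.25 (adjusted p = 0.429). With the file name style as a block the difference was 0.48 (adjusted p = 0.0499).

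Birc5 (survivin), which with Aurkb and Cdca8 forms part of the chromosomal passenger complex, passed the F test (adjusted p = 0.032) and no pairwise comparison. Its medians were 5.83 in CON, 5.73 in LAMS, 5.93 in HAMS, 5.99 in HAMSB, 5.69 in LAW and 5.63 in HAW. It differed from LAMS by 0.28 ± 0.11 in HAMSB (adjusted p = 0.102) and by 0.22 ± 0.11 in HAMS (adjusted p = 0.169). Birc5 followed the file name style (adjusted p = 0.0072).

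Kif11, the motor that pushes the spindle poles apart, passed the F test (adjusted p = 0.046). Its lowest, median and highest values were 6.10, 6.52 and 7.17 in LAMS, 5.66, 6.01 and 7.31 in HAMS, 5.87, 6.23 and 6.59 in HAMSB, 6.21, 6.76 and 7.48 in LAW, and 6.07, 6.69 and 6.88 in HAW, and CON measured 7.20, 6.41, 6.27, 6.58 and 6.50. The HAMS median lay under every LAMS array, and HAMS replicate 1 lay above every LAMS array. Kif11 differed by -0.49 ± 0.20 between HAMS and LAMS (adjusted p = 0.0797) and by -0.41 ± 0.19 between HAMSB and LAMS (adjusted p = 0.17).

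**Figure D2:**
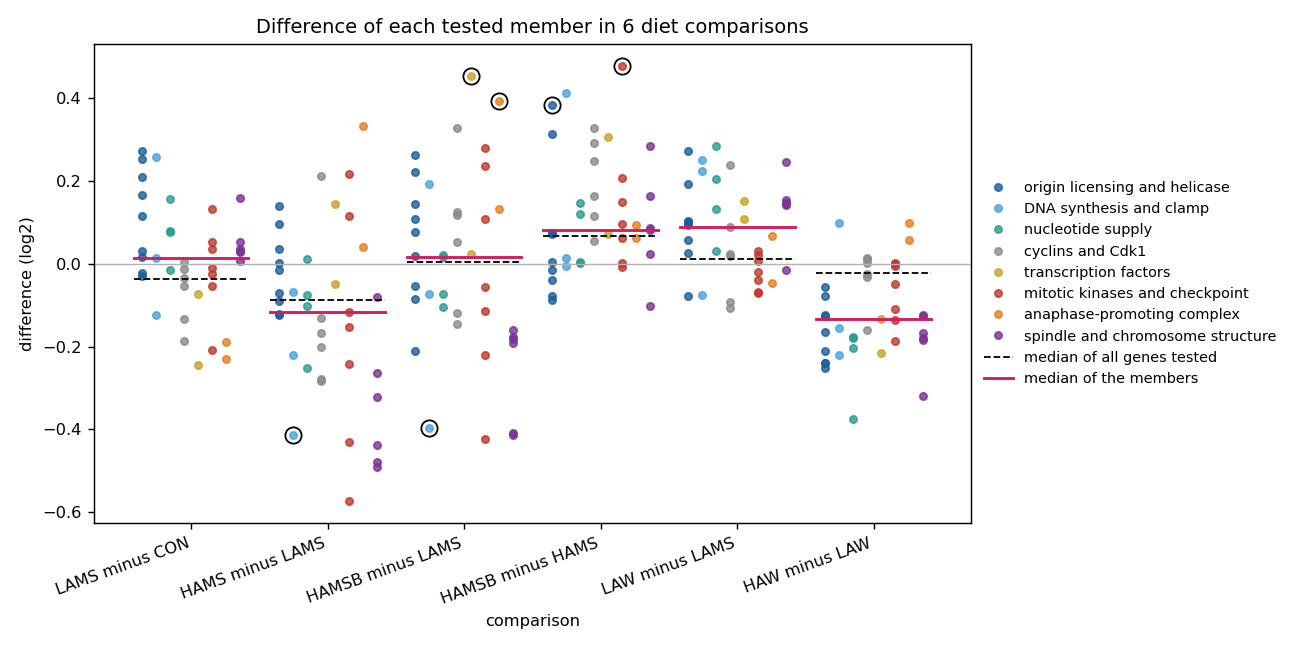
Difference in log2 expression of each of the 39 tested members in 6 diet comparisons, coloured by role; ringed points passed the adjusted threshold of 0.05, the dashed line is the median of all genes tested and the solid line that of the members. The ringed points are 1 member in HAMS minus LAMS, 3 in HAMSB minus LAMS and 2 in HAMSB minus HAMS, and the spindle members lie low in HAMS minus LAMS.

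Cdk1 and the cyclins did not pass in any diet comparison. Cdk1, the kinase that drives mitosis, measured 6.41, 5.72, 6.28, 6.55 and 5.97 in CON. Elsewhere the lowest, median and highest values were 5.69, 6.27 and 6.42 in LAMS, 5.20, 5.82 and 7.02 in HAMS, 5.99, 6.25 and 6.47 in HAMSB, 5.48, 6.14 and 6.57 in LAW, and 5.70, 6.03 and 6.59 in HAW. Every diet overlapped every other, and HAMS had both the lowest and the highest array. HAMSB minus HAMS was 0.33 ± 0.17 (adjusted p = 0.156). In that comparison Cdk1, the S phase cyclins Ccne1 and Ccne2, Ccna2, and the mitotic cyclins Ccnb1 and Ccnb2 were positive in 6 of 6, with a median of 0.21. With the name style and the B cell level in the model all 6 were negative, with a median of -0.09.

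The nucleotide supply members, Rrm1 and Rrm2 of ribonucleotide reductase, Tyms and the thymidine kinase Tk1, did not pass either. Tyms measured 7.58, 7.05, 7.12, 7.42 and 7.15 in CON. Lowest, median and highest values were 7.00, 7.14 and 7.65 in LAMS, 6.48, 6.99 and 7.81 in HAMS, 7.03, 7.24 and 7.50 in HAMSB, 7.14, 7.54 and 8.08 in LAW, and 6.54, 7.25 and 7.49 in HAW. LAW had the highest median, and its range overlapped that of every other diet. All 4 were positive in LAW minus LAMS, with a median of 0.17, and in HAMSB minus HAMS, with a median of 0.06. LAW replicate 5 gave the highest LAW values of Tyms, Rrm1 and Rrm2 (8.08, 8.55 and 8.71), but not of Tk1. In HAMSB minus HAMS all 4 were negative with the name style and the B cell level in the model, with a median of -0.15.

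Counted by comparison, HAMS minus LAMS had 1 member called (Pola1, lower) where 14.2% of all genes tested were called, 2.13% higher and 12.1% lower. HAMSB minus LAMS had 3 (E2f1 and Ube2c higher, Pola1 lower) against 6.84% of all genes tested, 2.2% higher and 4.65% lower. HAMSB minus HAMS had 2 (Gmnn and Plk1, both higher) against 17%, 14.5% higher and 2.58% lower. The median difference of the members was -0.12, 0.02 and 0.08 in these comparisons, and that of all genes tested was -0.09, 0.00 and 0.07. HAMSB and HAMS are both set against the same LAMS arrays, and the HAMS arrays enter the first and the third comparison, so these values share samples. The signs of these medians turned with the model. In HAMS minus LAMS the median was 0.08 (25 members positive, 14 negative) with the name style and the B cell level in the model, and 0.02 with array spread, against -0.12 (11 positive, 28 negative) without them. In HAMSB minus HAMS it was -0.13 (9 positive, 30 negative) with the name style and the B cell level and -0.02 with the B cell level alone, against 0.08 (32 positive, 7 negative). In HAMSB minus LAMS it lay between -0.05 and 0.06 over these models and the other alternatives. The half-width of the members' unadjusted 95% intervals ran from 0.17 to 0.50 in HAMS minus LAMS, with a median of 0.315, and the medians in the other 2 comparisons were 0.307 and 0.296.

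All 6 spindle and chromosome members were negative in HAMS minus LAMS, with a median of -0.38, and none passed. With the name style as a block the median was -0.21 and Tpx2 was positive (0.02). With the B cell level it was -0.19, with array spread -0.07, and with the name style and the B cell level together 0.11, with 4 of 6 positive. Kif23, a motor of cytokinesis, had 6.56, 6.87 and 7.30 as lowest, median and highest values in LAMS and 5.79, 6.28 and 7.59 in HAMS. Kif23 differed by -0.48 ± 0.19 (adjusted p = 0.0757) and Top2a, which untangles DNA, by -0.44 ± 0.21 (adjusted p = 0.133). For both the highest HAMS array, replicate 1, lay above every LAMS array. Kif20a, and Nusap1 and Tpx2, which organise spindle microtubules, did not pass either. The checkpoint kinases Bub1 and Bub1b differed by -0.57 ± 0.25 (adjusted p = 0.1) and -0.43 ± 0.17 (adjusted p = 0.0824). The counts moved with HAMS replicate 1. Without it, 7 members passed in HAMS minus LAMS, all lower (Pola1, Cdk1, Bub1, Bub1b, Kif11, Kif23 and Top2a), where 22.3% of all genes tested did. Without it, 9 members passed in HAMSB minus HAMS (Mcm10, Gmnn, Pcna, Ccnb2, Cdk1, E2f1, Plk1, Bub1b and Kif23), where 26.5% of all genes tested did, and 12 passed the F test, where 36.6% did.

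LAMS minus CON, LAW minus LAMS and HAW minus LAW called no member and 0% of all genes tested (limma, adjusted). At an unadjusted p under 0.05 the counts were 0 members and 935 genes, 0 members and 188 genes, and 2 members and 209 genes. The members' median differences were 0.01, 0.09 and -0.13, where those of all genes tested were -0.04, 0.01 and -0.02. In HAW minus LAW 31 of 39 members were negative, among them all 9 of licensing, all 4 of nucleotide supply and all 6 of spindle and chromosome structure. The 2 members with an unadjusted p under 0.05 were Gins2 and Tyms, thymidylate synthase, at -0.37 ± 0.16 (unadjusted p = 0.0256). Much of this rested on LAW replicate 5: without it 23 of 39 members were negative and the median was -0.01. Over all runs that left out 1 HAW or LAW array 23 to 37 members were negative. LAW minus LAMS rested on the same array. There 29 members were positive and 10 negative with LAW replicate 5, and 19 and 20 without it, with a median of -0.004. The amylose difference in wheat was set against that in maize (HAMS minus LAMS) in the same fit, and no member passed, against 0.0277% of all genes tested; 1 member had an unadjusted p under 0.05, Gins2 at -0.38 (unadjusted p = 0.00336, adjusted p = 0.178).

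The members varied widely among animals of the same diet. The SD within diets had a median of 0.31 over the members, from 0.15 for Gins2 to 0.50 for Bub1, and 33 of 39 members exceeded the median SD of all genes tested, with 22 above its 75th percentile. By diet the median SD of the members was 0.294 in CON, 0.286 in LAMS, 0.340 in HAMS, 0.218 in HAMSB, 0.347 in LAW and 0.251 in HAW. The mean over all members, taken per array, had an SD of 0.33 over the 8 HAMS arrays and 0.08 over the 9 HAMSB arrays. HAMS ran from 6.23 to 7.22 in that mean and HAMSB from 6.48 to 6.72. The upper end of HAMS was replicate 1 alone, which widens the HAMS SD, and the next highest HAMS array had 6.63.

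**Figure D3:**
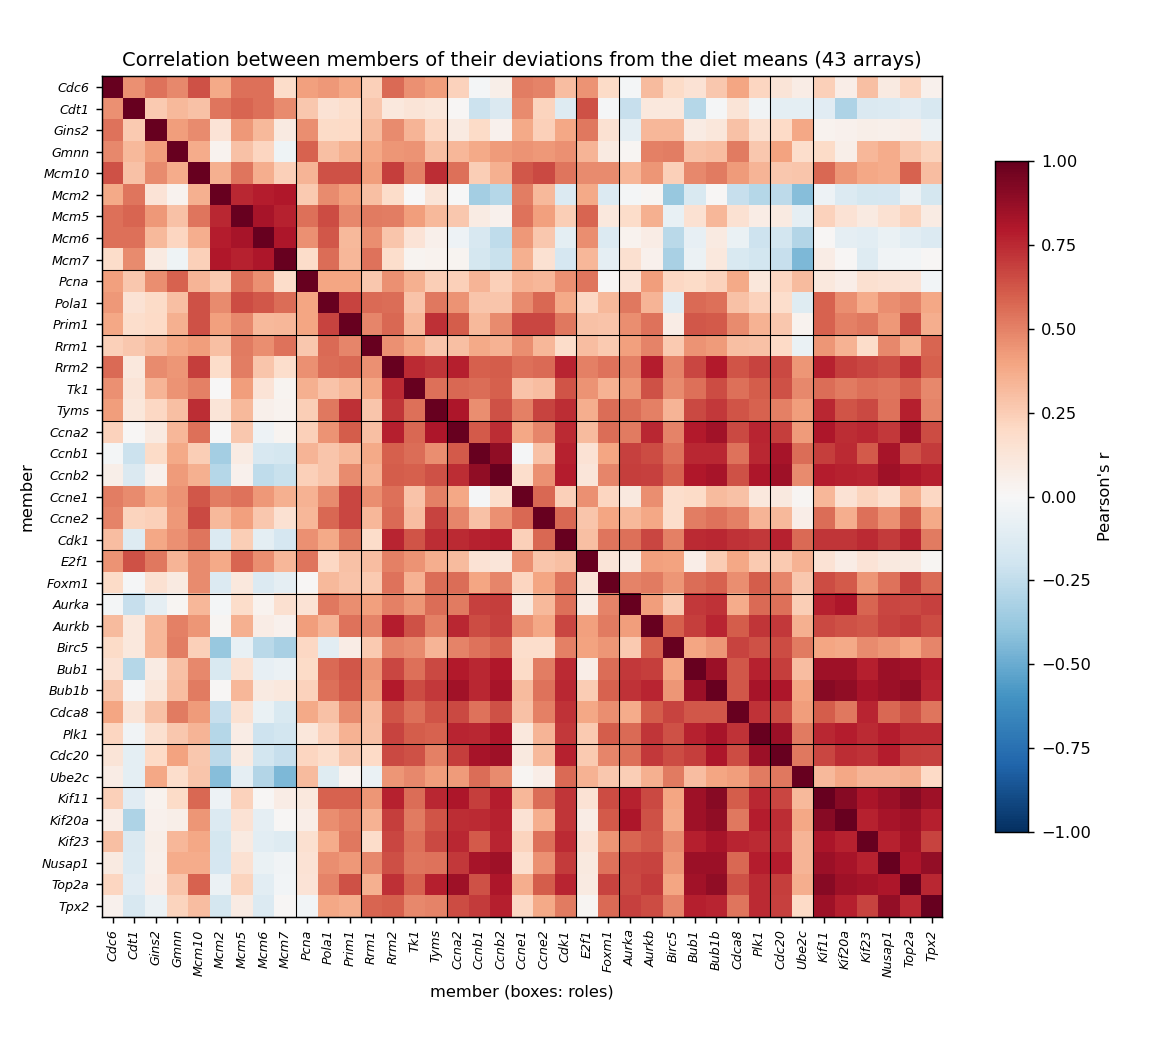
Pearson's r between members of their deviations from the diet means over 43 arrays, with members in the order of their roles and lines between roles. The mitosis members at the lower right form a block of high r (median 0.69), Mcm2, Mcm5, Mcm6 and Mcm7 form a small block at the upper left, and the median r between replication and mitosis members is 0.23.

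These deviations were shared between members. Over 741 pairs the median r of the deviations from the diet means was 0.415, from -0.448 to 0.912, and 89.9% of pairs were positive, against a median of 0.041 and 54.3% positive pairs for all genes tested. All pairs share the same 43 arrays, and the values are a description. The 105 pairs of mitosis members had a median of 0.69, the 120 pairs of replication members 0.408, and the 240 pairs between the groups 0.234. The highest values joined Kif11 with Kif20a, a motor of late mitosis (0.912), Bub1b with Kif11 (0.910) and Kif11 with Top2a (0.907). The mitotic cyclins Ccnb1 and Ccnb2 reached 0.890, and Plk1 with Cdc20 0.859. The lowest joined Mcm7 with Ube2c (-0.448), Mcm2 with Ube2c (-0.429) and Mcm2 with Birc5 (-0.378). A second probe set of Ccnb2 and of Rrm2, a subunit of ribonucleotide reductase, gave r of 0.995 and 0.971 with those used, and that of its partner subunit Rrm1, with a mean of 3.54, gave 0.235.

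**Figure D4:**
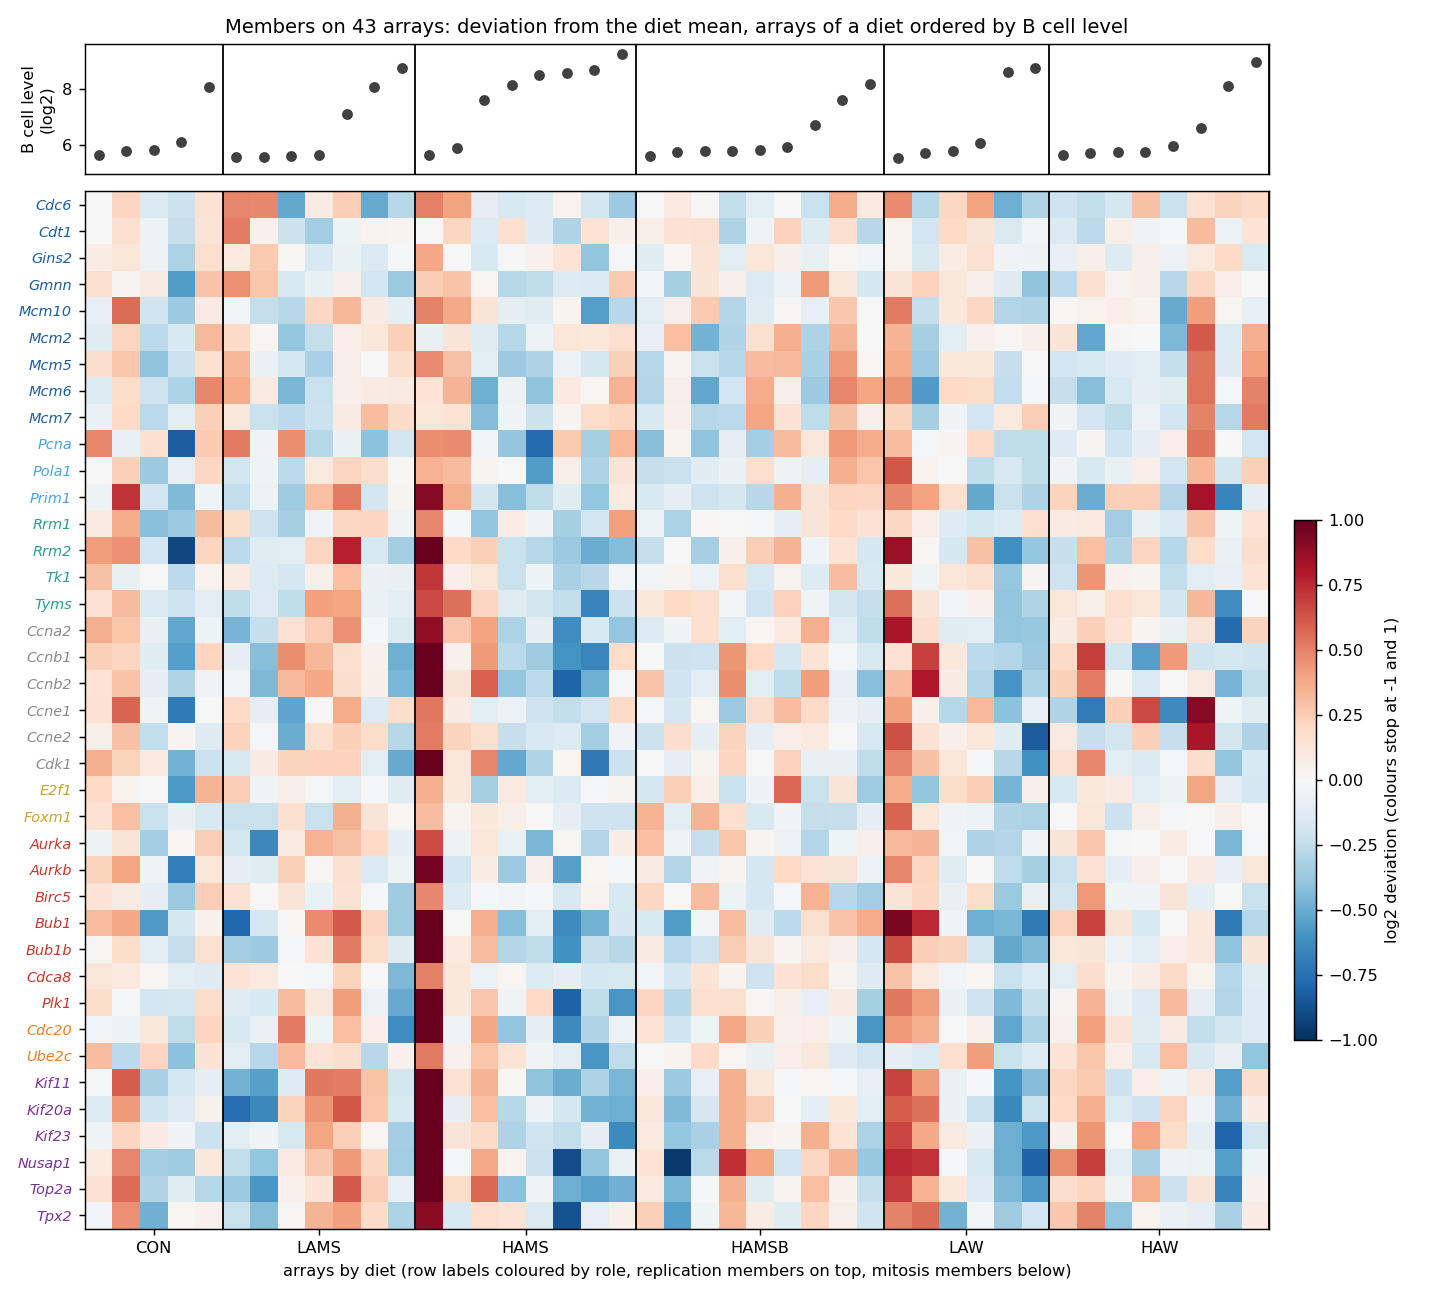
Deviation of each tested member from its diet mean on each array (colour, log2, limited to -1 to 1), with the arrays of a diet ordered by B cell level, which the points in the upper panel show. HAMS replicate 1, the leftmost HAMS column with a B cell level of 5.68, is high in nearly all rows. The columns at the right of HAMS and LAW are mostly low in the mitosis rows and less so in the Mcm rows. LAMS replicate 4 and HAW replicate 8 are mostly low in the mitosis rows too. LAMS replicate 2 and HAW replicate 5, also at the right, have spindle means of 6.96 and 6.73, above the diet means of 6.75 and 6.71.

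The members were then set against the levels of cell marker lists. With diet in the model, 20 of 39 members (51.3%) followed the B cell level (adjusted p under 0.05), close to the 54% of all genes tested that did. As it rose 19 members (48.7%) were lower and 1 (2.56%) higher, against 35.4% and 18.5% of all genes tested. Of the deviations from the diet means over 43 arrays, those of the mean over all members had r of -0.484 with the B cell level, -0.511 with T cells and -0.0737 with plasma cells. The members lower with it were 5 of 7 kinase and checkpoint members, 5 of 6 spindle members, 5 of 6 cyclins and Cdk1, both of the anaphase-promoting complex, and Rrm2 and Tyms. Per log2 unit of the B cell level, Kif23 fell by 0.20 ± 0.04 (SE), Ccnb2 by 0.20 ± 0.04, Cdk1 by 0.19 ± 0.03 and Cdc20 by 0.16 ± 0.04. Mcm7, a helicase subunit, rose by 0.08 ± 0.03 (adjusted p = 0.0199). No member of DNA synthesis passed, and Pola1 had a slope of 0.00 ± 0.03. With the name style as a block as well, 0 members rose and 22 fell, where 57.2% of all genes tested followed the level. The rise of Mcm7 thus did not pass in that model. The B cell list itself was higher in HAMS than in LAMS in 11 of 11 genes, with a median of 1.31. None of them was called, where 2.13% of all genes tested were called higher. The list was lower in HAMSB than in HAMS in 11 of 11 genes. Of these 3 were called, where 2.58% of all genes tested were called lower. Its mean per array ran from 5.68 to 9.25 in HAMS, 5.58 to 8.74 in LAMS and 5.61 to 8.17 in HAMSB. Of the markers that define B cells, Ms4a1 had a median under the floor, and Cr2 and Cxcr5 were tested.

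**Figure D5:**
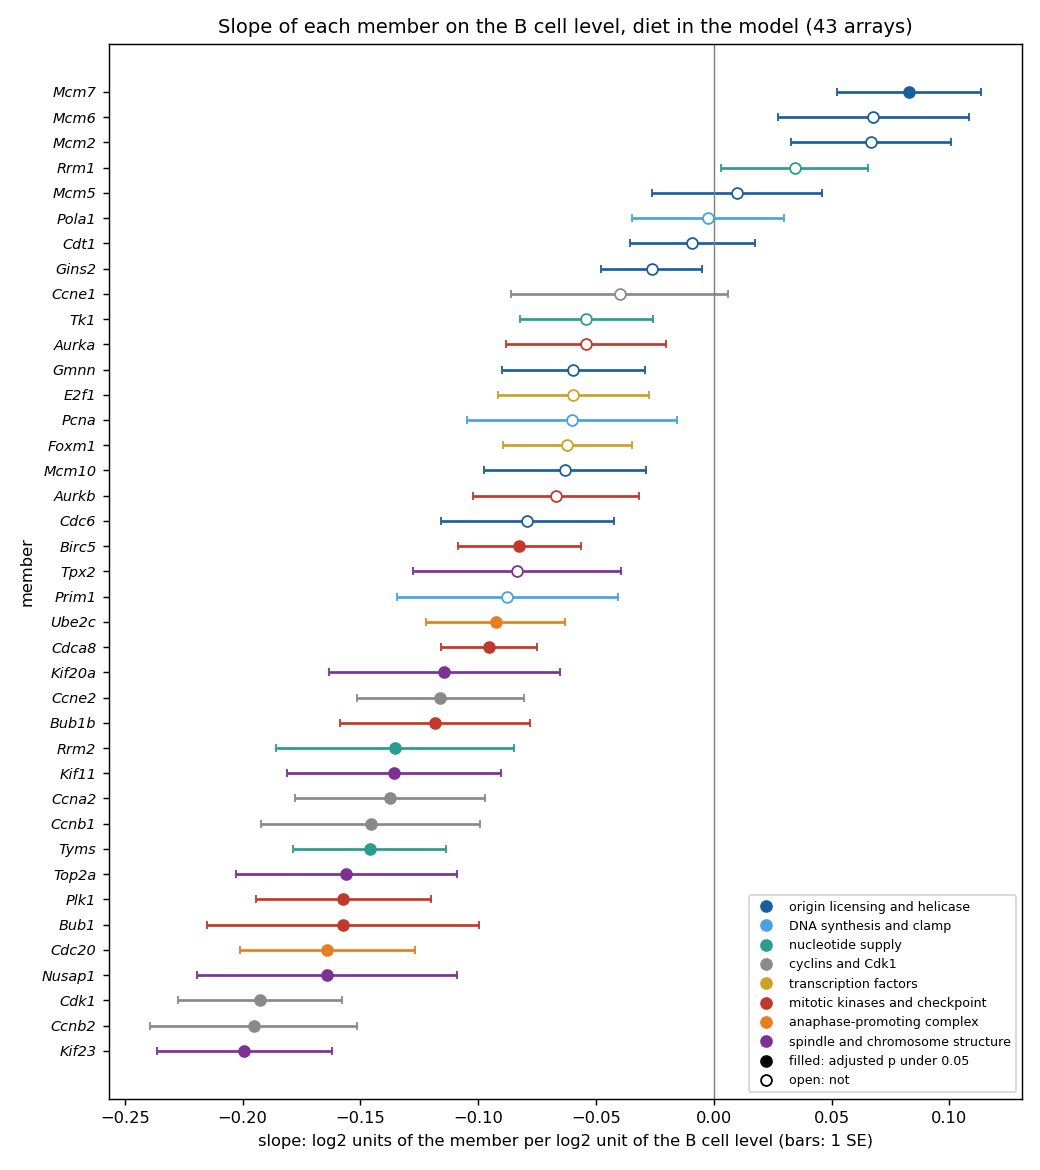
Slope of each tested member on the B cell level, in log2 units of the member per log2 unit of the level, with diet in the model (43 arrays); bars are 1 SE, colours are roles and filled points passed an adjusted p of 0.05. Of the filled points 19 lie left of 0, led by Kif23, Ccnb2 and Cdk1, and Mcm7 is the only filled point right of 0.

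Because the B cell level leaves a gap, the relation was also read on each side of it, as a description without test. A gap nearly as wide lay between 7.13 and 7.60, so the cut is a choice. The arrays under the cut spanned only 5.55 to 6.11 in B cell level. For the mean over all members r with the B cell level was -0.628 over 17 of the 18 arrays above the gap, the lone CON array being left out (Spearman -0.485, and -0.651 without the 2 arrays farthest from the median) and -0.608 over the 25 arrays under it (Spearman -0.523, and -0.497 without 2). Leaving out HAMS replicate 1 gave -0.58 under the gap, over 23 arrays, since it left a lone HAMS array there, which was left out as well. The spindle members had -0.599 above it and -0.42 under it, and the licensing members had 0.012 and -0.221. Mcm7 had 0.338 above the gap and -0.159 under it, so its rise was not seen within the arrays of low B cell level. HAMS replicate 1 mattered to the counts too: without it 14 of 39 members followed the B cell level, where 51.4% of all genes tested did. By file name style, r for the mean over all members was -0.779 over 20 arrays with the diet code first, -0.569 over 16 in lower case and 0.018 over 7 with the animal number first.

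The crypt level, the mean of 13 tested stem cell and Wnt target genes of the crypt base, had r of 0.528 with the mean over all members, again as deviations from the diet means. Other lists had values of similar size: 0.569 for differentiated colonocytes, 0.556 for epithelium in general, 0.519 for fibroblasts and 0.401 for smooth muscle, and array spread had 0.473. As the crypt level rose, 20 of 39 members rose and none fell, where 47.7% of all genes tested followed it, 35.3% upward. All 6 spindle members were among them, with Kif23 at 1.72 ± 0.28 and Top2a at 1.70 ± 0.33 log2 units per unit of the crypt level. So were 4 of 6 cyclins and Cdk1, 4 of 7 kinase and checkpoint members, and Mcm10 alone of the licensing members. Without HAMS replicate 1 the count was 13, where 44.4% of all genes tested followed it. With the B cell level in the same model 6 members still followed the crypt level (Ccna2, the cyclin of S phase and early mitosis, Prim1, Tyms, Kif11, Kif23 and Top2a), against 31.8% of all genes tested. The slope of Top2a was then 1.86 ± 0.51 (adjusted p = 0.00686). With the crypt level in the model, 8 members followed the B cell level, against 40.4% of all genes tested: Mcm2 and Mcm7 rose by 0.16 ± 0.05 each, and Cdc20, Ube2c, Ccnb1, Cdk1, Pcna and Cdca8 fell. Cdk1 fell by 0.18 ± 0.05 (adjusted p = 0.00795). What part these cell markers play in the diet differences was not tested.

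Other genes of the same processes were read from lists without members. The diet calls in this and the following lists come from the fit with diet alone. Unlike those of the members, they were not checked with the name style or the B cell level in the model, or by leaving out arrays. Of 34 further replication genes, 0 were higher and 2 lower in HAMS minus LAMS, where 2.13% and 12.1% of all genes tested were. The counts were 0 and 2 in HAMSB minus LAMS (2.2% and 4.65% of all genes tested). In HAMSB minus HAMS they were 3 and 0 (14.5% and 2.58%). Orc4, a subunit of the origin recognition complex, was lower than in LAMS both in HAMS (-0.68 ± 0.20, adjusted p = 0.0261) and in HAMSB (-0.68 ± 0.20, adjusted p = 0.0356). Orc5, of the same complex, was lower in HAMSB (-0.47 ± 0.14, adjusted p = 0.0357). Pola2, the regulatory partner of Pola1, was higher in HAMSB than in HAMS by 0.35 ± 0.10 (adjusted p = 0.0121), where Pola1 differed by 0.01. Orc3 passed the F test (adjusted p = 0.0425) and none of these 3 comparisons.

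Of 30 further mitosis genes none was called in HAMS minus LAMS or HAMSB minus LAMS (14.2% and 6.84% of all genes tested). In HAMSB minus HAMS 1 was higher and 2 lower (14.5% and 2.58% of all genes tested). The higher one was Cks1b, a small subunit that binds Cdk1, at 0.46 ± 0.11 (adjusted p = 0.00617). Kif4a, Smc4 and Kif15, the next by F test, had adjusted p of 0.0589, 0.0607 and 0.0644 there. With the B cell level 21 of the 30 fell and 2 rose, where 35.4% and 18.5% of all genes tested did.

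Of 24 brakes and G1 regulators, 6 were higher and 1 lower in HAMSB minus HAMS, where 14.5% and 2.58% of all genes tested were. Cdk6, a G1 kinase, was lower in HAMS than in LAMS (-0.58 ± 0.15, adjusted p = 0.0134) and higher in HAMSB than in HAMS (0.52 ± 0.14, adjusted p = 0.0111). Its cyclin partner Ccnd3 (0.37 ± 0.11, adjusted p = 0.0189) and E2f3, a relative of E2f1 (0.61 ± 0.17, adjusted p = 0.0164), were higher in HAMSB than in HAMS as well. Ccng2, a cyclin linked to cell cycle arrest, passed the F test (adjusted p = 0.00749) but none of the 3 maize comparisons, with -0.37 in HAMS minus LAMS (adjusted p = 0.0595) and -0.40 in HAMSB minus LAMS (adjusted p = 0.0545).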

How the data were processed

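Log2 expression of 29214 probe sets on 43 arrays was deposited, made by the authors with RMA per the submitters' processing notes; the version is not given in the sources used here. Values ran from 1.31 to 14.05. Of the probe sets 15310 carry 1 gene symbol, 323 several and 13581 none. From those with 1 symbol the probe set of highest mean was kept per symbol, and genes with a median of at least the 25th percentile (4.79) were tested. Diet means were fitted with limma 3.58.1 in R 4.3.3 to all 43 arrays and tested two-sided, adjusted by Benjamini-Hochberg over 10828 genes; slopes on the B cell and crypt levels and the file name style were fitted with diet. The fit was tested on simulated data. Precision is limited by the number of animals, and p-values measure the spread between animals. The members and lists were chosen with earlier results of these data known. All members may be named, and up to 4 genes of each other cell cycle list, those of smallest p in the F test. Arrays with the same replicate number in different diets had a median r of -0.05 between their deviations (94 pairs, -0.796 to 0.645). The 671 other pairs had a median of 0.02. With r so variable this cannot exclude a pairing, and none was assumed in the main fit. Plots used matplotlib 3.10.9 (Python 3.11.15).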

Additional observations from a re-analysis of the deposited data

Results flagged for a closer look

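A sample was singled out when its gap to the nearest array of its diet was large for the range of that diet (Dixon's 95% value). Of 264 such tests over members, levels and array spread 20 passed, and chance passes about 1 in 20. HAMS replicate 1 was the highest of its diet in 9 of them: Aurkb, a mitotic kinase, at 7.38, Birc5 at 6.43, Bub1 at 6.70, Cdca8 at 6.19, Kif20a at 7.18, Kif23 at 7.59, Rrm2 at 8.84, Tk1, thymidine kinase, at 6.34, and the mean over all members at 7.22. HAW replicate 8 was lowest for Aurka, a spindle pole kinase, at 5.68, Bub1b at 5.07 and Ccna2 at 5.61, and its interquartile range over probe sets was 2.68. LAMS replicate 4 was lowest for Birc5 at 5.38 and Cdca8 at 5.12. LAW replicate 5 was highest for Pola1 at 7.64, HAW replicate 3 was highest for Pcna at 8.51, and HAW replicate 7 was lowest for Foxm1 at 6.36. CON replicate 5 had the highest B cell level of its diet, 8.06, and HAMSB replicate 5 the lowest interquartile range of its diet, 2.95.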

How the results depend on the processing

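Counts are of the 39 tested members, and each percentage in parentheses is the share of all genes called in the same fit. Array weights gave 12 members in HAMS minus LAMS (37.4%), 16 in the F test (69.3%), 11 in HAMSB minus LAMS (34.5%), 8 in HAMSB minus HAMS (35.1%) and 9 for the name style (53.1%). With the name style as a block the counts were 0 in HAMS minus LAMS (8.79%), 0 in HAMSB minus LAMS (3.04%) and 0 in the F test (12.9%). In HAMSB minus HAMS Gmnn and Plk1 still passed with this block (adjusted p = 0.03 and 0.0499). With the B cell level added to that block no member passed in HAMS minus LAMS (0, against 0.794%), the F test (0, 4.95%), HAMSB minus LAMS (0, 8.05%), for the crypt level (0, 2.26%) or in HAMSB minus HAMS (0, 4.21%). With the B cell level alone as a covariate the counts were 0 in HAMSB minus HAMS (1.74%), 6 for the crypt level (31.8%) and 13 for the name style (53.8%). Gmnn, Gins2, Pola1, E2f1, Birc5, Ube2c and Kif11 still passed the F test with this covariate (adjusted p 0.00141 to 0.0469). Pola1, E2f1 and Ube2c still passed in HAMSB minus LAMS (adjusted p = 0.028, 0.0167 and 0.0256). In HAMS minus LAMS Ube2c passed (adjusted p = 0.0278) and Pola1 did not (adjusted p = 0.0511). Centring each array gave 0 in HAMSB minus HAMS (15.2%) and 8 for the style (46.9%). With array spread as a covariate the counts were 0 in HAMS minus LAMS (0.0554%), 1 in HAMSB minus LAMS (5.54%), 3 in the F test (14.1%), 1 in HAMSB minus HAMS (23%) and 2 for the style (27.7%). HAMSB minus LAMS gave 1 without the low-signal filter (3.9%), with animal number range as a block (4.99%), and with all probe sets of 1 symbol (4.21%). HAMSB minus HAMS gave 0 without the 2 arrays of lowest spread (14.5%; added after seeing the data). Fits of only the 2 diets compared gave 0 in HAMS minus LAMS (4.55%) and 1 in HAMSB minus HAMS (16.6%). The replicate block used the replicate number, which was not treated as a pairing in the main fit. With it the counts were 0 in HAMS minus LAMS (5.57%) and 3 in HAMSB minus LAMS (7.72%). They were 6 in the F test (23.8%) and 3 in HAMSB minus HAMS (21.4%). No value that passed reversed its sign. Leaving out 1 array at a time gave 0 to 7 in HAMS minus LAMS (5.73% to 22.3%), 0 to 4 in HAMSB minus LAMS (1.6% to 12.8%), 0 to 9 in HAMSB minus HAMS (8.51% to 26.5%), 4 to 12 in the F test (23.2% to 39.8%), 14 to 23 for the B cell level (51.4% to 55%), 13 to 22 for the crypt level (44% to 48.5%) and 3 to 6 for the style (37.9% to 44.1%). The causes of these shifts were not tested.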
